A study of Rattus norvegicus with 16 samples.

Results

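This section concerns 10 genes of the Notch pathway, taken by name from a list: the ligands Jag1, Jag2 and Dll1, the receptors Notch1, Notch2 and Notch3, the DNA-binding factor Rbpj, and the targets Hes1, Hey1 and Hey2. All 10 were found among the 31038 genes quantified in each library, and their levels were followed in purified Schwann cells (SC) and whole nerve (WN) before and after nerve crush. RNA was sequenced from the rat sciatic nerve, in 16 libraries that form 8 groups of 2. The groups are SC and WN from uncrushed nerve and from the nerve distal to a crush at days 3, 5 and 7. The labels give postnatal day 18 as the age of every sample, and the crush was made at that age without a sham operation for the uncrushed nerves, so that injury, surgery and days of growth cannot be told apart. At least 10 nerves went into each library, and the strain and sex of the rats are not given in the sources used here. Schwann cells were enzymatically dissociated, depleted of cells bearing CD45 or Thy1 and selected on an O4 dish, whereas whole nerve was lysed directly, so that a difference between SC and WN combines cell content with dissociation. Dissociated nerve that was not immunopanned, which the study also profiled, was not analysed here.

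Notch receptors are cut by proteases when a ligand on a neighbouring cell binds them, and the freed intracellular part enters the nucleus, where it joins RBPJ on DNA and switches on genes of the HES and HEY families. HES and HEY proteins are repressors that restrain differentiation in many lineages. In the Schwann cell lineage, Notch signalling is known to promote the generation and division of immature Schwann cells, to oppose myelination and to promote the loss of myelin after injury.

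Total expected counts ran from 12334355 to 27562637 in SC and from 10555067 to 20203912 in WN. In the SC libraries the summed FPKM (fragments scaled by transcript length and library total) of 10 immediate-early genes, which are induced within minutes by stress and by cell dissociation, was 4724 and 5348 in uncrushed nerve against 1332 to 1777 after crush, while WN libraries held 65.31 and 82.69 before and 157.9 to 250.3 after crush. In WN, scaling libraries by their totals alone in place of TMM (trimmed mean of M values) moved the median log2 change of all genes from near 0 to between 0.39 and 0.42. This is an alternative added after the data were seen. Over the same contrast, 7 myelin genes summed to 32870 and 41230 FPKM in uncrushed WN and to between 1210 and 5437 after crush, and their part in the shift was not tested. In SC the medians under library totals lay between -0.05 and 0.10. Changes in WN are reported relative to the median gene, and the FPKM values, which are scaled by library totals, lie higher after crush than the fitted changes.

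Sequences upstream of the target genes were examined first, since RBPJ is known to bind the core TGGGAA. The promoter windows used are those of RefSeq on build GRCr8, 250 bases before to 50 after the start of a gene, and 9 of the 10 genes matched an entry, Hey1 being the exception. The core, on either strand, was found in 25.7% of 33469 windows, and 2 or more copies in 3.85%. Hes1 held 2 copies on its own strand, starting at positions -123 and -109, Hey2 held 2 in opposite orientations, at -175 and -60, and Dll1 held 2, at -185 and -82. Positions count the first base of the match from the start of the gene. Notch3 held 1 copy and the windows of Rbpj, which has a pair of starts, held 1 and 2. No copy lay in the windows of Notch1, Notch2, Jag1 or Jag2, which says only that these letters are not in those windows. Of 3 further targets that changed in SC, the windows of Heyl and Nrarp held no copy and each of the 2 windows of Hes7 held 1. A longer form, GTGGGAA, occurred in 6.29% of all windows and among the members in those of Hes1, Hey2 and Dll1, once each, where it overlaps the shorter core. The stretches upstream of Hes1 (chr11:84213106-84213195, minus strand) and Hey2 (chr1:28640910-28641059, plus strand) are shown because these were the targets among the 10 genes that fell in SC, with the core or its complement in capitals and the start of the gene lying beyond the right end.
Hes1: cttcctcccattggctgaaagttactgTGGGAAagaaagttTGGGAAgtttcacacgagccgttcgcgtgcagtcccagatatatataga
Hey2: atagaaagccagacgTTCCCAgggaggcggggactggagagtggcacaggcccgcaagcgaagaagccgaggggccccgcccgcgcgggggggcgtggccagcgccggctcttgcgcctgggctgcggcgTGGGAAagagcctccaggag

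On the FPKM scale, which is per length, Rbpj had the highest level in uncrushed SC, at 51.4 ± 7.74 FPKM (SD, n = 2), followed by Notch2 at 23.6 ± 0.976, Notch1 at 16.5 ± 0.488, Hes1 at 12.5 ± 2.76 and Hey1 at 4.47 ± 0.191. Jag1 lay at 1.44 ± 0.035 FPKM and Hey2 at 0.84 ± 0.014, and no neighbours among these 7 genes overlapped between libraries. Notch3, Dll1 and Jag2 lay at 0.09 FPKM or less, close to or at the limit of what these libraries could count. At day 3 the order differed: Hey1 at 2.92 ± 0.629 FPKM stood above Hes1 at 1.60 ± 0.884, and Hey2 stood above Jag1.

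**Figure D1:**
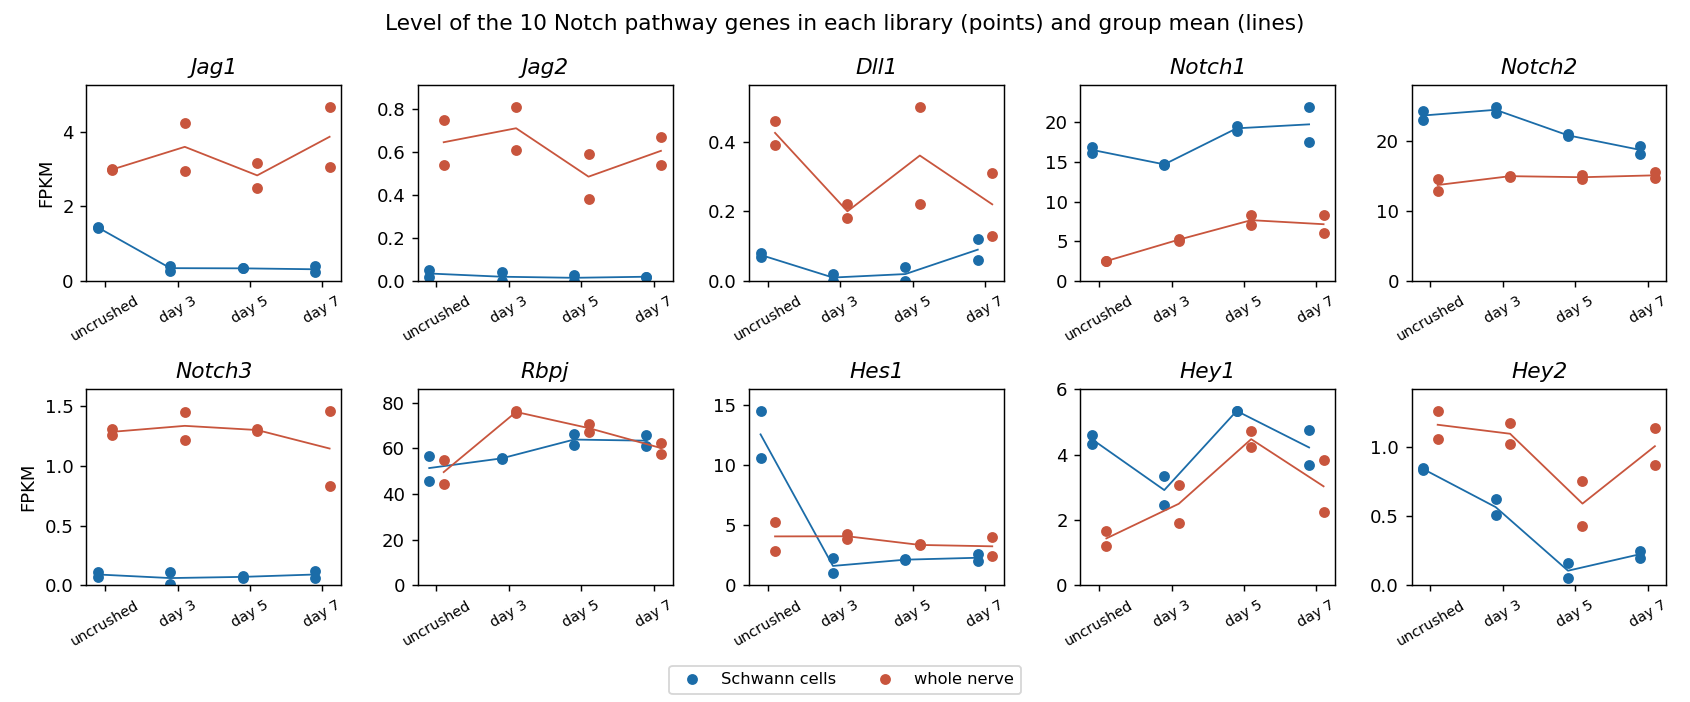
FPKM of each of the 10 genes (vertical axis, from 0, with its own scale in each panel) in uncrushed nerve and at days 3, 5 and 7 after crush. Points are single libraries of Schwann cells (blue) or whole nerve (red) and lines join the means of 2 libraries. Hes1 and Jag1 in Schwann cells drop by day 3 and stay low, while Notch1 in whole nerve climbs from 2.48 and 2.55 FPKM to between 5.07 and 8.26.

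The first comparison asked how the genes changed in SC after crush. Hes1, Jag1 and Hey2 fell, Notch2 fell slightly by day 7, and no member rose at any day. Differences between groups were tested with edgeR's quasi-likelihood test on the expected counts, with p-values adjusted by Benjamini-Hochberg over all genes tested, and a gene was called at an adjusted p under 0.05. Of 8 members that could be tested in SC, 2 were lower at day 3, 3 at day 5 and 4 at day 7. Across all 14961 genes tested, 25.7%, 25.6% and 21.9% were lower at these days and 26.9%, 29.0% and 25.0% were higher. The median log2 change of the tested members was -0.48, -0.27 and -0.26, against 0.00, 0.06 and 0.06 for all genes. With 2 libraries a group, an exact permutation test of a single gene cannot give a two-sided p below 0.333, so the fit across genes carries every test, and since the labels do not say whether libraries of a group came from separate purifications, the p-values measure the spread between these libraries.

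Hes1, a repressor of the basic helix-loop-helix family and a direct RBPJ target in many tissues, had the largest log2 change of the tested members at day 3. Its level was 10.59 and 14.49 FPKM in uncrushed SC, 0.98 and 2.23 at day 3, 2.15 and 2.10 on day 5 and then 1.98 and 2.59 on day 7. All 6 crushed libraries lay below both uncrushed ones. The log2 fold change was -2.85 ± 0.35 (SE) at day 3, -2.59 ± 0.35 at day 5 and -2.52 ± 0.35 at day 7, with edgeR adjusted p of 1.1e-04, 2.1e-04 and 3.4e-04. The fall at day 3 was 7.22-fold, and it was called with every library left out in turn, at log2 values from -3.62 to -2.46.

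Jag1, a membrane-bound ligand, was the only one of the 3 ligands with more than 6 counts in any SC library. It stood at 1.41 and 1.46 FPKM in uncrushed SC and at 0.28 and 0.41 by day 3. Days 5 and 7 gave 0.34 in both libraries and then 0.24 and 0.39. Crushed and uncrushed libraries did not overlap, and the log2 fold change was -1.97 ± 0.32 at day 3, -2.11 ± 0.32 at day 5 and -2.25 ± 0.33 at day 7 (edgeR adjusted p of 6.1e-04, 4.6e-04 and 4.6e-04).

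Hey2, a HEY-family repressor best known from arteries and heart, was called lower at days 5 and 7. Its 0.83 and 0.85 FPKM in uncrushed SC became 0.62 and 0.51 at day 3, a log2 difference of -0.53 ± 0.49 that was not called. At day 5 it was at 0.05 and 0.16 FPKM and at day 7 at 0.20 and 0.25. The log2 fold change was -3.01 ± 0.60 at day 5 (edgeR adjusted p = 0.0021) and -1.92 ± 0.55 at day 7 (adjusted p = 0.017). These values rest on 2 and 6 counts in the day 5 libraries and 8 and 7 in those of day 7, and the day 7 call was lost when any of the 4 libraries compared was left out (edgeR adjusted p of 0.058 to 0.106). Day 7 against day 3 was not called (log2 -1.39 ± 0.55, adjusted p = 0.104), so no order in time is shown.

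Notch1, Notch2 and Rbpj had log2 changes between -0.37 and 0.22 in SC. Notch3 was not called, and at 1 and 21 counts in the day 3 libraries its log2 difference of -0.43 ± 0.86 leaves its direction undetermined. Notch1 was at 16.18 and 16.87 FPKM in uncrushed SC and between 14.63 and 21.95 after crush, with log2 changes of -0.12 ± 0.12, 0.20 ± 0.12 and 0.22 ± 0.12 that were not called at any day. Notch2 was at 24.29 and 22.91 FPKM, then 23.97 and 24.85, 20.63 and 20.90, and 18.12 and 19.26, so that the day 7 libraries lay below the uncrushed ones. Its log2 change was -0.37 ± 0.09 at day 7 (edgeR adjusted p = 0.0070) that was not called without day 7 replicate 1 (adjusted p = 0.061). Between days 3 and 7 Notch2 fell by a log2 of -0.48 ± 0.09 (edgeR adjusted p = 0.0046), the only member called of 8 in that comparison, where 21.0% of all genes were called in either direction (48.8% of them higher, or 62.5% on library totals), and the call was not kept without day 3 replicate 2 (adjusted p = 0.059). As a ratio within a library, Notch2 to Notch1 went from 1.5 and 1.36 in uncrushed SC to 1.03 and 0.88 at day 7, with values of 1.64 and 1.69 at day 3.

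Rbpj, the factor through which cleaved Notch acts, held the highest level of the 10 genes in every SC library, at 45.92 to 56.87 FPKM before and 55.43 to 66.29 after crush. Its log2 changes of 0.18 ± 0.10, 0.14 ± 0.10 and 0.22 ± 0.10 were not called. The near-identical copy Rbpjl2, with which reads may be shared, was listed at no more than 0.49 FPKM, under 1% of Rbpj in each library. Hey1, the HEY-family member with the highest level here, was at 4.34 and 4.61 FPKM in uncrushed SC, at 3.36 and 2.47 at day 3, at 5.34 in both libraries of day 5, and at 3.68 and 4.76 at day 7. None of its log2 changes (-0.59 ± 0.29, 0.21 ± 0.29 and -0.15 ± 0.29) was called.

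**Figure D2:**
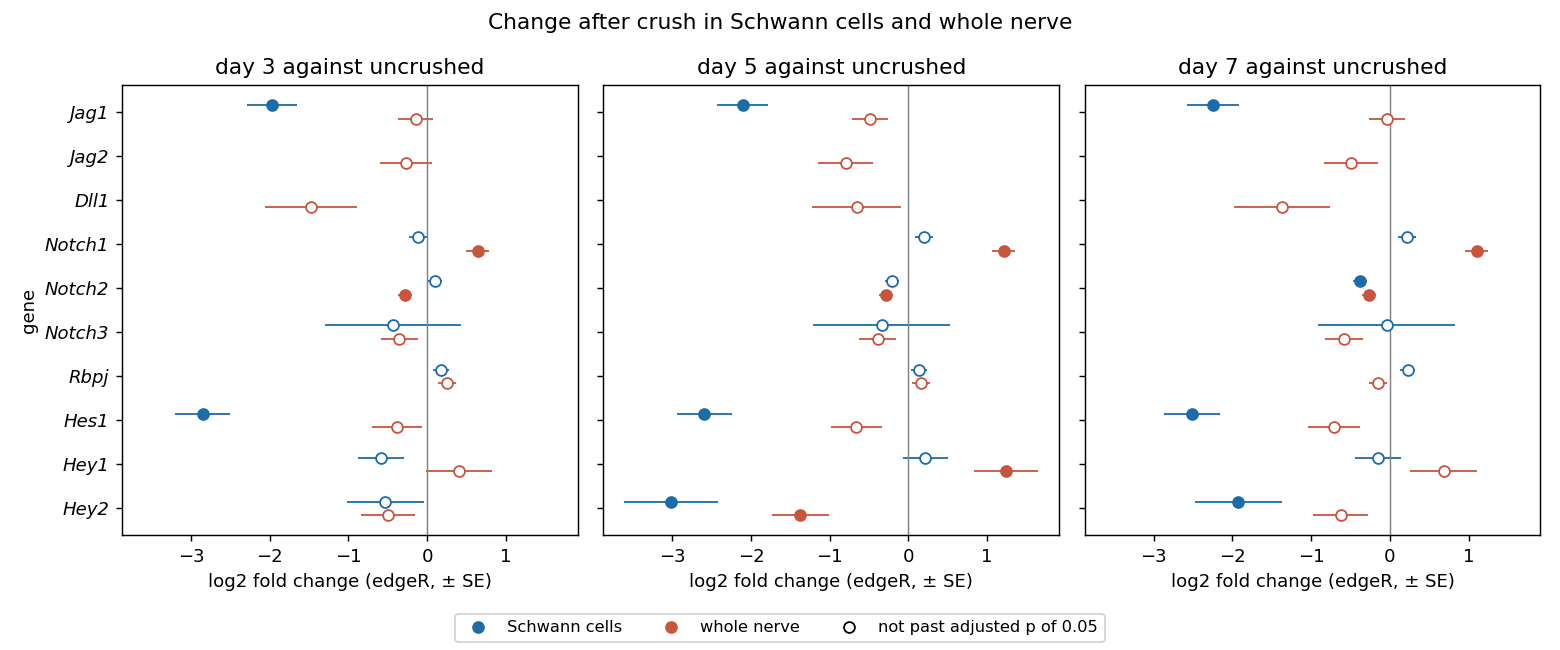
Log2 fold change of each gene (horizontal axis, edgeR, with its standard error as a bar) at days 3, 5 and 7 against uncrushed nerve, in Schwann cells (blue) and whole nerve (red); filled points passed an adjusted p of 0.05. In Schwann cells Hes1 and Jag1 lie near or below -2 at each day and Hey2 lies at -3.01 and -1.92 at days 5 and 7, while Jag2 and Dll1 were too low to test there.

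Other measures differed over the same contrast in SC. All 7 myelin program genes were lower at day 3, and their sum was 16270 and 16950 FPKM before and 1915 to 7103 after crush. Of 10 immediate-early genes, 9 were lower at each of the 3 days and none was higher. Genes of repair Schwann cells went the other way: of 5 tested, 4 were higher and 1 (Jun) lower at each day, with a median log2 change of 4.89 at day 3. Of 5 tested macrophage markers, 1 (Ptprc) was higher at day 3, none at days 5 and 7, and none was lower. Egr2, a transcription factor of myelinating Schwann cells that is also an immediate-early gene, went from 269.99 and 285.94 FPKM to 32.16 and 30.71 at day 3. The summed markers of pericytes and smooth muscle (7 genes, 2 of 6 tested lower and none higher at day 3) were 38.99 and 52.21 FPKM before and 8.77 to 18.97 after crush. Most of the uncrushed sum was Pdgfrb, at 29.14 and 33.71 FPKM, above its 8.58 to 14.11 FPKM in WN. It was at 3.06 and 3.74 at day 3, where Cspg4, a pericyte proteoglycan, was also lower (log2 -1.49 ± 0.19, edgeR adjusted p = 1.5e-04), while Abcc9 (-1.06 ± 0.74), Acta2 (0.84 ± 0.66), Myh11 (0.55 ± 0.32) and Rgs5 (-0.24 ± 0.63) were not called. Those of endothelial cells (8 genes) summed to 4.74 and 6.11 before, 1.48 and 4.62 at day 3, and 1.68 to 2.20 at days 5 and 7. Of their 4 tested genes, Kdr and Tek were lower at day 3, while Cdh5 (1.63 ± 0.87) and Flt1 (1.84 ± 0.72) were not called, and the median log2 change was 0.21. Those of fibroblasts (5 genes) summed to 315.2 and 331.8 before and 158.1 to 253.0 after, but 1 was higher (Fn1) and 1 lower (Col1a1) at day 3, with a median log2 change of 0.09. Perineurial markers (4 genes, 1 of 3 tested lower at day 3) summed to 115.2 and 119.3 FPKM before and 57.98 to 66.93 after. The lower one was Itgb4 (log2 -1.09 ± 0.09), while Slc2a1 (-0.43 ± 0.17) and Cldn1 (0.57 ± 0.42) were not called. Pecam1 and Emcn, which mark endothelium, were listed at 0 in both uncrushed SC libraries. The part of these in the changes of Hes1, Jag1 and Hey2 was not tested. Day 3 replicate 2 of SC held more Ptprc (the CD45 gene, 1.29 FPKM against 0.18 in replicate 1) and more Cdh5 (an endothelial cadherin, 1.42 against 0.13), and it was the day 3 library with the more Hes1 and Jag1. Without it the day 3 log2 changes were -3.62 for Hes1 and -2.29 for Jag1.

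The same question was put to whole nerve, where Schwann cells are mixed with endothelial, perivascular, perineurial, immune and connective tissue cells, and where fewer cells of a type and less RNA per cell cannot be told apart. Notch1 rose at each day, and Hey1 rose and Hey2 fell at day 5. At day 3, 1 member was higher and 1 lower of 10 tested, at day 5 it was 2 and 2, and at day 7 it was 1 and 1. On library totals alone the tally was 2 and 0, 3 and 1, and 1 and 0, since Notch2, the lower member at days 3 and 7, was then not called and Rbpj was called higher at days 3 and 5. Among all 15831 genes tested, 23.1%, 18.9% and 15.4% were higher at the 3 days and 22.5%, 19.5% and 15.9% were lower. Of the genes called, 50.7%, 49.2% and 49.3% were higher, a split that became 79.2%, 81.2% and 85.8% on library totals alone. On that scale 7009, 6907 and 6825 of the 15831 genes were higher and 1843, 1596 and 1134 lower. The median log2 change of the members was -0.27, -0.44 and -0.38, beside medians of 0.00, -0.01 and 0.02 over all genes.

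Notch1, whose receptor acts in Schwann cells and in endothelium among others, was at 2.48 and 2.55 FPKM in uncrushed WN. It reached 5.35 and 5.07 at day 3, 7.07 and 8.26 on day 5 and then 6.05 and 8.26 on day 7, all above the uncrushed libraries. Relative to the median gene its log2 fold change was 0.64 ± 0.15 at day 3 (edgeR adjusted p = 0.0046), 1.21 ± 0.15 at day 5 (adjusted p = 1.0e-04) and 1.10 ± 0.15 at day 7 (adjusted p = 2.6e-04), and each call held with any library left out. Scaled by library totals alone, these became 1.05, 1.61 and 1.51. Between days 3 and 7 the rise was 0.46 ± 0.14 (edgeR adjusted p = 0.039), where 21.2% of all genes were called in either direction, and that call was lost without any of the libraries except day 7 replicate 1.

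Markers of other cell types moved over the same days in WN. Erbb3, a neuregulin receptor of the Schwann cell lineage, rose from 28.92 and 34.36 FPKM to between 70.67 and 112.3, while Sox10, a factor that defines the lineage, was at 21.52 and 28.68 before and 27.77 to 52.06 after crush and was not called at any day. Among all 9 Schwann cell markers listed, myelin genes included, 2 were higher at each of the 3 days relative to the median gene, and 5, 5 and 4 were lower. The 8 endothelial markers summed to 100.5 and 107.8 FPKM before and to between 121.6 and 144.8 after crush, and the 6 macrophage markers to 119.3 and 132.4 before and between 314.8 and 548.5 after. Relative to the median gene, 3 of the 8 endothelial markers were higher and 2 lower at day 3. For day 5 the tally was 1 and 1, and for day 7 it was 0 and 3. Of the 6 macrophage markers, 6, 6 and 5 were higher at the 3 days and none was lower. Of the 10 immediate-early genes, 5, 4 and 4 were higher and none was lower. The part of these in the rise of Notch1 was not tested.

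Notch2 in WN was called lower at each day, with log2 changes of -0.28 ± 0.09, -0.29 ± 0.09 and -0.27 ± 0.09 and edgeR adjusted p of 0.025, 0.026 and 0.042. Its FPKM nonetheless ran from 14.48 to 15.49 after crush, against 12.87 and 14.51 in uncrushed WN. With library totals alone as the scale the sign turned, to 0.13, 0.11 and 0.14, none of them called, so no direction can be given for Notch2 in WN. Rbpj showed the same dependence. It was at 54.71 and 44.54 FPKM in uncrushed WN and reached 75.55 and 76.45 at day 3, 70.82 and 67.05 on day 5 and then 57.77 and 62.58 on day 7. Its change was not called relative to the median gene (0.25 ± 0.11, 0.16 ± 0.11 and -0.15 ± 0.11), but on library totals it was 0.66 at day 3 (edgeR adjusted p = 6.3e-04) and 0.56 at day 5 (adjusted p = 0.0021). From day 3 to day 7 Rbpj fell by 0.40 ± 0.11 on the log2 scale (adjusted p = 0.028), a call that was lost without any 1 of the 4 libraries.

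Hey1 in WN rose from 1.21 and 1.66 FPKM to 4.73 and 4.22 at day 5, a log2 change of 1.24 ± 0.41 (edgeR adjusted p = 0.036) that rests on 13 and 14 counts in the uncrushed libraries. DESeq2 gave 1.25 for it with an adjusted p of 0.099. The levels of days 3 and 7, at 1.92 to 3.83 FPKM, also lay above the uncrushed libraries, with log2 differences of 0.41 ± 0.42 and 0.69 ± 0.43 that were not called. Hey2 went from 1.26 and 1.06 FPKM to 0.43 and 0.75 at day 5 (log2 -1.38 ± 0.36, edgeR adjusted p = 0.013) and was at 0.87 to 1.17 FPKM on the other days. Neither day 5 call held under each left-out library, with adjusted p of up to 0.179 for Hey1 and 0.093 for Hey2.

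The remaining members were not called in WN at any day. Hes1 was at 2.87 and 5.25 FPKM before and between 2.44 and 4.26 after crush, with overlap at each day. Jag1 was at 3.00 and 2.98 FPKM before and 2.50 to 4.67 after. The remaining ligands and Notch3, a receptor of pericytes and smooth muscle, were low: Jag2 lay between 0.38 and 0.81 FPKM, Dll1 between 0.13 and 0.50 and Notch3 between 0.83 and 1.46 over all 8 WN libraries.

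Whether the injury response differed between SC and WN was tested as an interaction, the log2 change in SC minus that in WN. Hes1, Jag1 and Notch1 differed at each of the 3 days and the other 7 members at none, so 3 of 10 were called at each day, beside 26.0%, 27.5% and 26.0% of all 16829 genes. For Hes1 the difference was -2.58 ± 0.51 at day 3, -2.05 ± 0.51 at day 5 and -1.92 ± 0.52 at day 7 (edgeR adjusted p of 0.0018, 0.0083 and 0.014). For Jag1 it was -1.91 ± 0.36, -1.74 ± 0.37 and -2.34 ± 0.38 (adjusted p of 0.0014, 0.0031 and 4.6e-04). For Notch1, which rose in WN and was not called in SC, it was -0.86 ± 0.20, -1.13 ± 0.19 and -1.002 ± 0.20 (adjusted p of 0.0046, 6.0e-04 and 0.0017). The direction of all 9 held in each fit with a library left out, and the call of Hes1 at day 7 was lost in 3 of them. Under library totals alone the same 9 were called, together with Hey1 and Rbpj at day 3, Hey1 and Hey2 at day 5 and Notch2 at day 7. Of the 10 immediate-early genes, 9, 8 and 8 were lower by the same difference and none was higher, with medians of -3.44, -2.83 and -2.60, and their part in it was not tested. Of all genes called at the 3 days, 47.4%, 45.8% and 44.6% were higher, and 19.5%, 24.9% and 23.2% on library totals. On that scale 1078, 1263 and 1147 of the 16829 genes were higher and 4457, 3815 and 3793 lower.

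The comparison of SC with WN at matched time points asked where each gene was the more abundant. Notch1 and Notch2 were higher in SC at all 4 time points, Jag1, Jag2 and Notch3 were higher in WN at all 4, and Hes1 changed sides. In uncrushed nerve, 4 members were higher and 4 lower in SC. At day 3 and again at day 5, 2 were higher and 6 lower, and at day 7 it was 2 and 4. The lower members included Jag2 at all 4 time points and Dll1 at all but day 7. Both were too low to test in SC and entered this fit through their counts in WN, so these tallies are no evidence of a trait of the members. A stricter count filter, under which neither was tested, is given at the end. Among all 16829 genes, 29.1%, 24.5%, 23.2% and 22.4% were higher and 35.3%, 32.8%, 28.4% and 28.7% lower at the 4 time points. In uncrushed nerve 45.2% of the genes called were higher in SC, and 58.9% on library totals. The median log2 difference of the members was -0.47, -1.07, -1.62 and -0.95, against -0.10, -0.11, -0.03 and -0.03 for all genes.

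Notch1 was 5.31-fold higher in SC than in WN of uncrushed nerve (log2 2.41 ± 0.15) and 2.92-, 2.42- and 2.65-fold higher at days 3, 5 and 7, with edgeR adjusted p of 2.1e-06 or below. Notch2 differed less, by a log2 of 0.48 ± 0.08, 0.76 ± 0.08, 0.44 ± 0.08 and 0.25 ± 0.08 (edgeR adjusted p of 1.9e-04, 2.5e-06, 5.3e-04 and 0.021), and the day 7 call was lost without SC replicate 2 or WN replicate 1 of that day (adjusted p of 0.119 in each). As a share of the summed FPKM of Notch1, Notch2, Notch3 and Notch4, Notch1 made up 37.0 to 52.7% in SC libraries and 13.03 to 32.0% in WN. Notch3 was the reverse, with 1 to 21 counts in SC libraries against 79 to 192 in WN, and a log2 difference between -4.23 ± 0.49 and -3.68 ± 0.50 over the 4 time points (edgeR adjusted p of 2.7e-05 or below). Without SC replicate 2 of day 3, which leaves the library with 1 count, the day 3 value was -7.03.

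Jag1 was lower in SC in uncrushed nerve, by a log2 of -1.37 ± 0.25, and the difference was -3.28 ± 0.27, -3.11 ± 0.28 and -3.71 ± 0.29 at days 3, 5 and 7 (edgeR adjusted p of 2.3e-04 or below). Jag2, a ligand related to Jag1, had 0 to 5 counts in any SC library against 30 to 75 in WN. Where both SC libraries held 3 counts or fewer, its WN to SC ratio of counts over library totals was 19.1 in uncrushed nerve (95% interval 7.14 to 71.8), 39.0 at day 5 (10.4 to 328) and 27.8 at day 7 (9.14 to 138). Dll1, a delta-type ligand, had 0 to 6 counts in SC and 5 to 23 in WN. Its ratio was 5.59 in uncrushed nerve (2.31 to 16.3), 12.9 at day 3 (3.18 to 113) and 18.1 at day 5 (4.65 to 156). The intervals overlap, and at day 7, with 6 and 2 counts in SC and 12 and 5 in WN, the log2 difference of -1.32 ± 0.80 was not called. The uncrushed call of Dll1 was lost without SC replicate 1 (edgeR adjusted p = 0.056). Its calls at days 3 and 5 held with any library left out, but the fitted log2 difference then ran from -6.18 to -2.84 and from -7.06 to -3.23, the lowest values coming from fits without SC replicate 2 at day 3 or SC replicate 1 at day 5, which leave an SC library with 0 counts. These are exact intervals from the pooled counts and cover counting error only, as do all statements on depth here, since the reads carry no molecular identifiers. Summed markers of endothelium were 100.5 to 144.8 FPKM in WN and at most 6.11 in SC, and those of pericytes and smooth muscle 264.6 to 387.6 against at most 52.21, and their part in the levels of Jag1, Jag2, Dll1 and Notch3 was not tested.

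**Figure D3:**
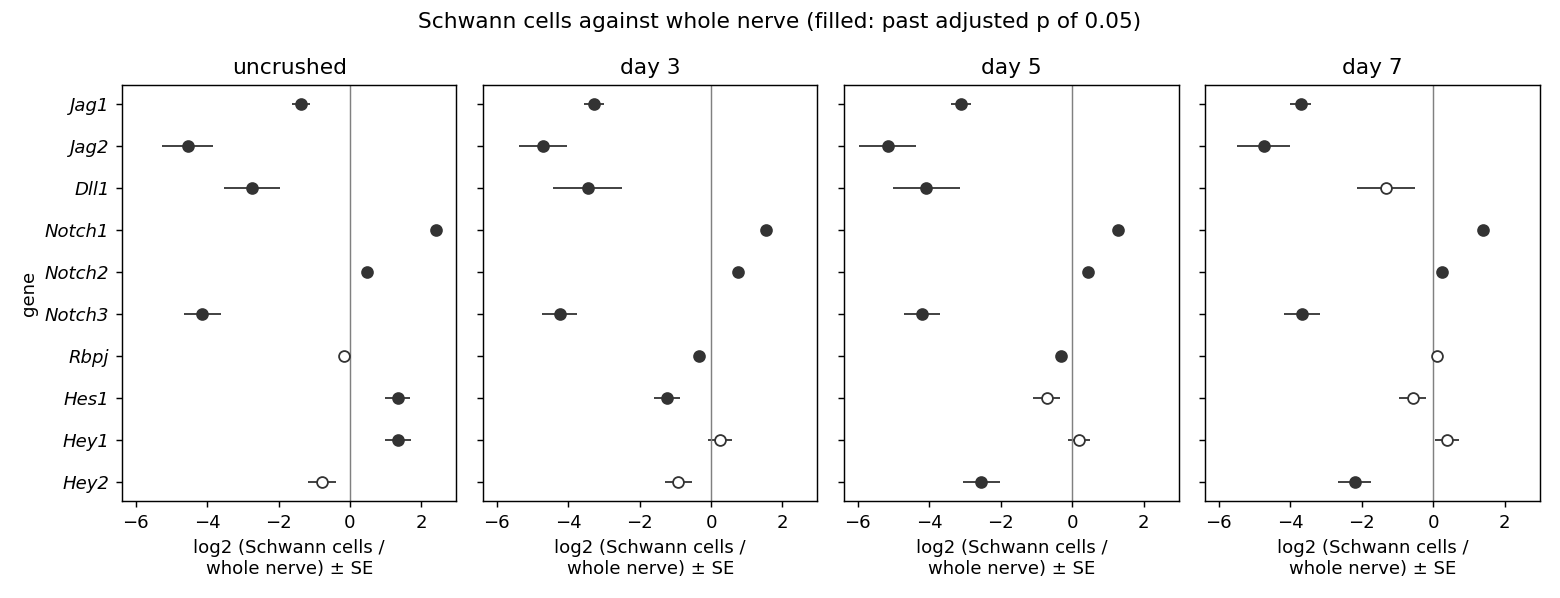
Log2 ratio of Schwann cells to whole nerve for each gene (horizontal axis, edgeR, bars are standard errors) at the 4 time points; filled points passed an adjusted p of 0.05. Notch1 and Notch2 lie to the right of 0 in every panel, Jag1, Jag2 and Notch3 to the left, and Hes1 is at 1.34 in uncrushed nerve and -1.23 at day 3.

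Hes1 was higher in SC than in WN of uncrushed nerve, by a log2 of 1.34 ± 0.35 (edgeR adjusted p = 0.0040), and lower at day 3, by -1.23 ± 0.37 (adjusted p = 0.010). At days 5 and 7 the differences of -0.71 ± 0.38 and -0.57 ± 0.39 were not called. The uncrushed call was lost without WN replicate 1 (adjusted p = 0.063) and the day 3 call without SC replicate 1 (adjusted p = 0.094, log2 -0.81). Hey1 was higher in SC in uncrushed nerve, by 1.35 ± 0.37 (edgeR adjusted p = 0.0058, and 0.069 without WN replicate 1). Its differences of 0.24 ± 0.33, 0.20 ± 0.32 and 0.40 ± 0.34 at days 3, 5 and 7 were not called, and the change from uncrushed nerve was not called by the interaction either (adjusted p of 0.127, 0.099 and 0.190). Hey2 was lower in SC at day 5, by -2.54 ± 0.51 (adjusted p = 8.2e-04), and at day 7, by -2.20 ± 0.46 (adjusted p = 0.0010). Rbpj differed little, at -0.34 ± 0.11 and -0.31 ± 0.11 at days 3 and 5 (edgeR adjusted p of 0.016 and 0.029), and both calls were lost under upper quartile scaling (0.070 and 0.203) and under each left-out library.

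The wider pathway was described through 57 further genes, listed by role, and their choice, like that of the members, was made with results of these data known. Of the 50 that could be tested in SC, 14 rose and 16 fell by day 3. The same tally was 15 and 15 for day 5 and 15 and 13 for day 7. Among all genes 26.9%, 29.0% and 25.0% were higher and 25.7%, 25.6% and 21.9% lower at these days. The median log2 change of the pathway genes was 0.06, -0.14 and 0.14, against 0.00, 0.06 and 0.06 for all genes. In WN, 13 were higher and 12 lower of 50 at day 3, 8 and 8 on day 5 and then 9 and 6 on day 7. The shares among all genes in WN were 23.1%, 18.9% and 15.4% higher and 22.5%, 19.5% and 15.9% lower. On the library-totals scale the number called in WN at day 7 was 26 in place of 15, beside 7959 in place of 4952 over all genes.

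Further targets moved in opposite directions in SC. Heyl, a relative of Hey1 and Hey2, was nearly absent from uncrushed SC (0.03 and 0.14 FPKM, from 2 and 8 counts) and present after crush, at 2.7 and 2.05 FPKM at day 3, 2.50 and 2.01 on day 5 and then 0.95 and 1.38 on day 7. Its log2 fold change was 4.83 ± 0.45, 4.69 ± 0.45 and 3.71 ± 0.48 (edgeR adjusted p of 1.6e-05, 2.2e-05 and 1.9e-04). The size at day 3 ran from 4.06 to 6.19 when a library was left out, and some of its reads were assigned in fractions between genes. In WN it was at 1.08 and 1.26 FPKM before and 1.02 to 1.96 after crush, and the SC and WN responses differed at day 3 by 4.42 ± 0.58 (adjusted p = 6.0e-05). Nrarp, a feedback inhibitor that binds the Notch complex, went the other way, from 1.96 and 3.05 FPKM in uncrushed SC to 0.29 and 0.46 at day 3, 1.02 and 0.80 on day 5 and then 1.14 and 0.69 on day 7. Its log2 change was -2.63 ± 0.42, -1.48 ± 0.39 and -1.48 ± 0.39 (edgeR adjusted p of 5.5e-04, 0.0096 and 0.012). The calls of days 5 and 7 did not hold under each left-out library (adjusted p of up to 0.078 and 0.092). Its response differed from that of WN at day 3 by -2.62 ± 0.59 (adjusted p = 0.0044). Hes7, an oscillating factor of the embryonic segmentation clock, fell from 1.06 and 0.77 FPKM to 0.30 and 0.13 at day 3 (log2 -2.11 ± 0.53, edgeR adjusted p = 0.0079). Hes5, a target in neural progenitors, was listed at 0 in all 16 libraries.

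The make-up of the summed FPKM of Hes1 and the 3 HEY-family genes differed between uncrushed and crushed SC. Hes6, a HES relative that is not in this sum, was at 1.26 to 4.22 FPKM in the 8 SC libraries, with no call at any day. Hes1 made up 67.1 and 72.1% of the sum of Hes1, Hey1, Hey2 and Heyl in uncrushed SC and 12.8 to 30.7% after crush. Heyl went from 0.19 and 0.70% to 28.2 and 35.3% at day 3 and to 14.0 and 15.4% at day 7, while Hey1 held 53.0 to 55.6% at days 5 and 7. The sum itself was 15.8 and 20.1 FPKM in uncrushed SC and 6.81 to 10.0 in the 6 crushed libraries, all of them below. In WN the sum lay between 6.42 and 10.4 FPKM, with no separation of crushed and uncrushed libraries.

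**Figure D4:**
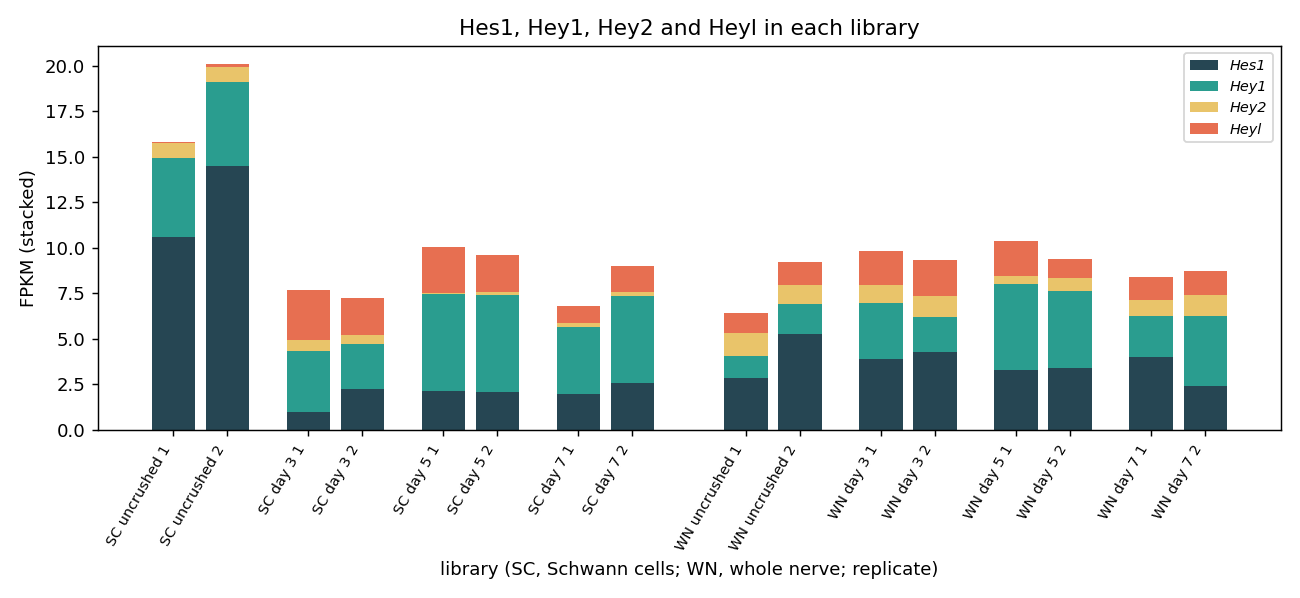
Stacked FPKM of Hes1, Hey1, Hey2 and Heyl (vertical axis, from 0) in each of the 16 libraries. The uncrushed Schwann cell bars are mostly Hes1 and reach 15.8 and 20.1 FPKM, and the crushed ones reach at most 10.0, with Hey1 as the largest part in all 6.

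The genes of the machinery that processes receptors and ligands are given by role, to be read beside the 26.9% of all genes that were higher in SC at day 3 and the 25.7% that were lower. All 4 tested genes of receptor glycosylation were higher in SC at day 3, from Poglut1 (log2 0.76 ± 0.10), which adds O-glucose to Notch, to Lfng (1.66 ± 0.19), a Fringe enzyme that alters ligand preference and that went from 1.78 and 2.33 FPKM to 7.76 and 8.46. Mfng, another Fringe, had 1 count in the uncrushed SC libraries together and none at day 7. In the cleavage list, 4 of 8 were higher and 2 lower at day 3, from Aph1a (1.66 ± 0.30), a subunit of gamma-secretase, to Adam17 (-0.76 ± 0.10), a shedding protease. Adam17 was at 78.23 and 73.27 FPKM in uncrushed SC, 44.01 and 42.11 at day 3, and 120.3 and 106.6 at day 7, where its log2 change was 0.54 ± 0.10. In WN Adam17 rose at day 3 by 0.46 ± 0.09, and the responses of SC and WN differed by -1.32 ± 0.13 (edgeR adjusted p = 4.2e-06). Aph1b was listed at 0 in all 16 libraries, but the deposited co-expression modules place it in module 8, so the 0 does not show that it was absent.

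Ubiquitin ligases and endocytic adaptors ran from Dtx4 (-1.83 ± 0.15), a Deltex ligase, to Numbl (0.87 ± 0.13), a relative of the Notch inhibitor Numb, with 1 higher and 5 lower of 12 at day 3. Coactivators ran from Maml3 (-0.83 ± 0.11) to Maml2 (0.66 ± 0.11), both of the Mastermind family that bridges Notch and acetyltransferases, with 1 higher and 3 lower of 8. Among the corepressors, 3 were higher and 3 lower of 12, from Tle2 (-0.98 ± 0.23), a Groucho-type factor, to Ctbp2 (1.04 ± 0.14). Notch4, a receptor mainly of endothelium, fell in SC from 0.64 and 0.71 FPKM to 0.18 and 0.21 at day 3 (log2 -1.72 ± 0.31, edgeR adjusted p = 0.0013). At that day 2 of the 4 tested endothelial markers, Kdr and Tek, were lower and none was called higher, and their part in the fall of Notch4 was not tested. Of 5 further ligands, Dll4 alone could be tested in SC, at 1.15 ± 1.02 and not called, from at most 20 counts a library. Dlk1, Dlk2 and Dner each held 3 counts or fewer in both libraries of some SC groups, and Dll3 was listed at 0 in all 16 libraries.

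**Figure D5:**
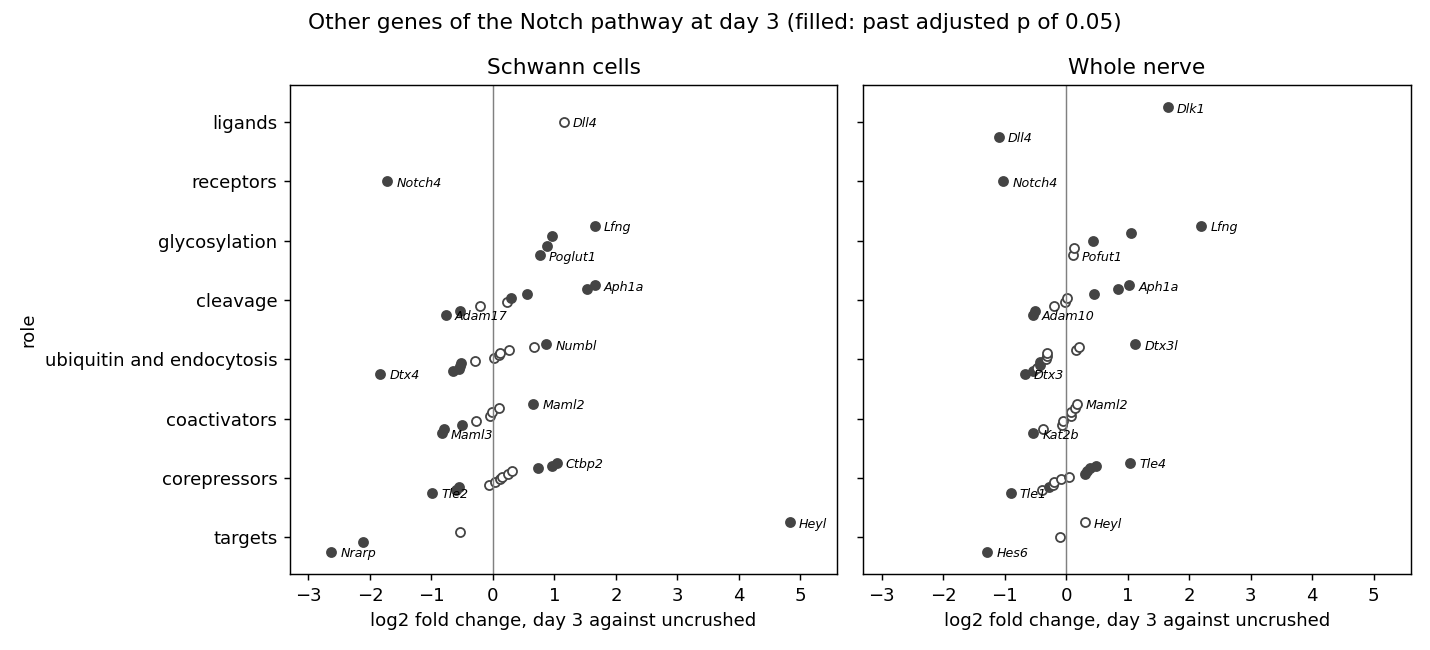
Log2 fold change at day 3 against uncrushed nerve (horizontal axis) for the other genes of the pathway that could be tested, by role (vertical axis), in Schwann cells (left) and whole nerve (right); filled points passed an adjusted p of 0.05 and the extremes of each role are named. In Schwann cells Heyl at 4.83 and Nrarp at -2.63 are the extremes.

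Genes whose profile over the 16 libraries was most like that of a member were found by Pearson's r of log2(FPKM + 1), as a description in which the points share tissue and library. Hes1 was most like Rtl1, Sik1 and Rtn2 (r of 0.94, 0.93 and 0.92), and Jag1 most like Prickle1, Kcnk6 and Tnxa-ps1 (each 0.98). Notch1 was closest to Capn5, Lbh and Pcdh7 (each 0.99) and Notch2 to Cep350, Med13l and Syne2 (0.98, 0.98 and 0.97). For Notch3 the nearest were Plxna2, Tshr and Ccdc141 (each 0.99), for Jag2 Abca16, Bdh1 and Asb9 (0.99, 0.98 and 0.98), and for Dll1 Gdf5, Tekt3 and Cyp2e1 (0.96, 0.94 and 0.94). Rbpj was nearest to Cluh, Acp1 and Pex3 (0.94, 0.94 and 0.92), Hey1 to Dhx38, Nvl and Slc4a1ap (0.90, 0.90 and 0.89), and Hey2 to LOC103690064, Nab1 and Ldb2 (0.94, 0.89 and 0.89). These names depend on the pseudocount: at 0.1 the 3 nearest remained for Notch1, Notch2 and Rbpj, 2 remained for Dll1 and Hey1, 1 for Notch3, Hes1 and Hey2, and none for Jag1 and Jag2. In the 8 SC libraries alone, the 3 nearest of Rbpj shared 1 gene with these and those of the other 9 members none. The deposited table of co-expression modules in SC lists 4 of the members: Hes1 in module 7, Notch2 in module 8, and Notch1 and Rbpj together in module 9.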

How the data were processed

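Libraries were made with an amplifying kit (Ovation RNA-seq V2), and the strand setting is not given in the sources used here. Per the labels and the study's methods, the authors aligned reads with STAR to Rnor_6.0 and deposited expected counts, FPKM and TPM per gene and library from RSEM; the TPM were not used. The deposited table of modules holds a module number for each listed gene, and its 8 columns of per-sample values, which name the day but not SC or WN, were left unused. Expected counts were rounded and tested with edgeR 4.0.16 (quasi-likelihood, TMM, filterByExpr, R 4.3.3), in 1 fit for SC, 1 for WN and 1 for all 16 libraries where SC and WN were compared, with Benjamini-Hochberg adjustment and a threshold of 0.05. Scripts were tested on simulated data. Groups came from the labels. FPKM served for levels, correlations (pseudocount 1) and marker sums. Alternatives were DESeq2 1.42.0, other scalings, filters and sample sets, a replicate block and each library left out. All 10 members were named, with the genes of largest rise and fall per role at day 3 in SC, genes at 3 counts or fewer in a group, Hes6 and Hes7 (chosen after their values were seen) and the 3 nearest genes by correlation. Members and lists were chosen with earlier results of these data known. Promoter sequences came from RefSeq tables of GRCr8, which is not the build of the files.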

Additional observations from a re-analysis of the deposited data

Results flagged for a closer look

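The following responses to injury differed between Schwann cells and whole nerve by the interaction test in edgeR (log2 change in SC minus that in WN). Hes1 differed by -2.575 at day 3, -2.05 at day 5 and -1.92 at day 7, and Jag1 by -1.91, -1.74 and -2.34. Notch1 differed by -0.86, -1.13 and -1.002, where the rise was in WN. Of the other pathway genes named, Heyl differed at day 3 by 4.42, Nrarp by -2.62 and Adam17 by -1.32. SC were dissociated and WN was not, so dissociation and cell content cannot be told apart in these libraries, and the dissociated nerve that the study also profiled was not analysed here. Groups of 2 libraries are too small to check for a library far from the others.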

How the results depend on the processing

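With 2 libraries a group, few counts for Jag2, Dll1, Notch3, Hey2 and Hey1 limit the precision. Among members called, 401 values under other settings kept their call, 14 lost it and 3 reversed, and with a library left out 227 kept and 45 lost it. The replicate block turned Notch3 in SC at day 7 to 0.075 and changed no count of members called. Replicate numbers did not pair the libraries (correlations of deviations from -0.0552 to 0.0758).

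Under library totals alone, WN log2 changes turned positive for Notch2 (0.13, 0.11 and 0.14 at days 3, 5 and 7), Notch3 (0.054 and 0.0095 at days 3 and 5), Jag1 (0.27 and 0.37 at days 3 and 7), Jag2 and Hes1 at day 3 (0.14 and 0.030) and Rbpj at day 7 (0.25), and Rbpj in SC against WN of uncrushed nerve was 0.14. Jag1 in WN at day 7 was 0.0092 under upper quartile scaling and 0.054 with all 16 libraries in 1 fit. The correlation of Dll1 with Cyp2e1 was -0.078 in SC alone.

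Members called from day 3 to day 7 in SC numbered 2 in place of 1 under upper quartile scaling, library totals, no low-count filter and all 16 libraries. In WN at day 7 they numbered 1 in place of 2 under upper quartile scaling, library totals, the compared groups alone and all 16 libraries. With 10 counts required in every library, Notch3, Jag2, Dll1 and Hey2 were no longer tested in SC against WN. Members called there numbered 5, 5, 4 and 3 in place of 8, 8, 8 and 6, as many as the main fit called among the members that remained. Library totals gave 5 and 5 members in place of 3 and 3 for the difference of responses at days 3 and 5, and 26 other pathway genes in place of 15 in WN at day 7. Over all genes, library totals gave 7959 calls in place of 4952 in WN at day 7.

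With each library left out, members called ranged from 0 to 2 in SC between days 3 and 7, from 1 to 3, 1 to 4 and 1 to 3 in WN at days 3, 5 and 7, and from 0 to 1 in WN between days 3 and 7. Other pathway genes ranged from 18 to 27 in SC at day 7 (28 with all libraries) and from 10 to 15 for the difference of responses at day 3 (16). Calls over all genes between days 3 and 7 in SC fell from 3140 to 1772 and 1533 without day 3 replicate 1 or 2 and 1598 without day 7 replicate 1. In WN they went from 3357 to as few as 1635. Log2 changes with no call that changed sign were Notch3 in SC (-3.15 to 0.28, -0.67 to 0.027 and -0.69 to 0.36 at days 3, 5 and 7), Dll4 in SC at day 3 (-0.19 to 1.70), Hey1 in SC at day 7 (-0.32 to 0.045), and in WN Jag1 at days 3 and 7 (-0.40 to 0.086 and -0.36 to 0.25), Jag2 at day 3 (-0.52 to 0.0081), Hes1 at day 3 (-0.77 to 0.10) and Rbpj at days 5 and 7 (-0.013 to 0.36 and -0.32 to 0.050). For SC against WN they were Rbpj in uncrushed nerve (-0.34 to 0.032) and Hey1 at day 3 (-0.069 to 0.63). The cause of these changes was not tested. The alternative with the module table's own FPKM was not run, since its column names do not give SC or WN, though the paper states that the modules were built on purified Schwann cells.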
